A study of Mus musculus with 6 samples.

Results

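The transcripts described here encode the receptors through which serotonin, dopamine, noradrenaline, acetylcholine, histamine and adenosine act. They are the 35 rows, of 13582 gene rows in the deposited table, whose symbol begins with Htr, Drd, Adra, Adrb, Chrm, Chrna, Chrnb, Chrng, Hrh or Adora followed by a digit. The rows were taken by symbol alone, but the receptor families were chosen with earlier results of these data known. The study asked what the cortex transcribes during the lasting tolerance to ischemia (loss of blood supply) that an earlier dose of resveratrol, a plant polyphenol, can give. RNA of the right cortex was sequenced from 3 C57BL/6 mice given resveratrol at 10 mg/kg and 3 C57BL/6 mice given vehicle. All 6 were 10 weeks old when killed, 2 weeks after 1 intraperitoneal injection, and the labels of these samples name no ischemia. The labels give vehicle a dose of 10 mg/kg too, which was taken to mean that these mice had the same injection without resveratrol.

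Most of these receptors span the membrane 7 times and work through a G protein. Those coupled to Gs raise cyclic AMP, those coupled to Gi lower it, and those coupled to Gq release calcium from stores. The nicotinic subunits and Htr3a differ, in that they assemble into ion channels opened by acetylcholine or serotonin. In the cortex these transmitters, apart from adenosine, arrive mainly on fibres from small nuclei below it and set arousal, attention and plasticity. The striatum below the cortex is the main site of Drd1, Drd2 and Adora2a, which divide its projection neurons into those of the direct and those of the indirect pathway.

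The sequence before the transcription start was printed for 4 members, from RefSeq (build GRCm38.p6, 250 bases on the coding strand up to the base before the annotated start). Drd1 and Drd2 were chosen because their libraries varied together, and Chrm2 and Chrnb2 because they are the members whose groups did not overlap. Capitals mark GGGCGG or CCGCCC (the GC box) and TGACG or CGTCA (the core of the cyclic AMP response element), read on both strands, with each match counted also where matches overlap.
Drd1, chr13:54055659-54055908, minus strand: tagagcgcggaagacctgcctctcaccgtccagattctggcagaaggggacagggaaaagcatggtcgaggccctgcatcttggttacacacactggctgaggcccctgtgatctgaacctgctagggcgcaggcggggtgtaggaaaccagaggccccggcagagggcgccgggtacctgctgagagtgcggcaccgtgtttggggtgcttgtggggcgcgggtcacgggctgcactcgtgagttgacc
Drd2, chr9:49340153-49340402, plus strand: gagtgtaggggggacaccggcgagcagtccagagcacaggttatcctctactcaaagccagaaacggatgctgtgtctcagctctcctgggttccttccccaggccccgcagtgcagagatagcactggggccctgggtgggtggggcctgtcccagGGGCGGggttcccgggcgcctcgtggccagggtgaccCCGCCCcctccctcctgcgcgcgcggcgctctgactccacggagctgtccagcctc
Chrm2, chr6:36387834-36388083, plus strand: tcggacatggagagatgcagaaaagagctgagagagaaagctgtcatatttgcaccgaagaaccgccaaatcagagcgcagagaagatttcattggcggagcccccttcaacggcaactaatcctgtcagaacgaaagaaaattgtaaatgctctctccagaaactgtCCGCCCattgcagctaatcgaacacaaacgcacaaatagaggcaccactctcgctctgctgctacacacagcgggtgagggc
Chrnb2, chr3:89764633-89764882, minus strand: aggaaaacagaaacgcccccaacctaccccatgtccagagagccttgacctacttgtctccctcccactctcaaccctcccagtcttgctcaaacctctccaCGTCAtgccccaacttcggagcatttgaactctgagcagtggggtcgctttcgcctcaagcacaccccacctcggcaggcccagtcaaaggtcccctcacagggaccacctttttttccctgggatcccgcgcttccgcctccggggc
The Drd2 window held 2 GC boxes, the Chrm2 window held 1, and the Chrnb2 window held 1 core of the cyclic AMP response element. In the Drd1 window these letters did not occur, and TATAAA or TTTATA (the TATA box) occurred in 0 of the 4. Of all 32851 RefSeq windows of this length, 32.7% held a GC box, 17.8% the core and 12.4% a TATA box. A window was found for 28 of the 35 members, and in the first window listed a GC box occurred in 17, the core in 5 and a TATA box in 1. These matches describe letters only, and for Drd1 and Drd2 the RefSeq start differs from the GENCODE start given below.

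Values are FPKM (fragments scaled to transcript length and to the mapped fragments of the library), so levels can be compared between genes. Over all genes the median level ran from 9.85 to 10.2 FPKM across libraries, and the sequencing depth is unknown. The labelled tissue was checked against markers. Of 14 names for cortical excitatory neurons 13 were measured, and their summed level was 432 to 450.2 FPKM in resveratrol and 383 to 476 FPKM in vehicle. Markers of striatal projection neurons were also present, at summed levels of 401 to 812 FPKM in resveratrol and 468 to 1145 FPKM in vehicle over 17 genes that include no receptor described here, and vehicle 1 was the highest library. In bulk RNA, fewer cells of a type and less RNA per cell cannot be told apart. Of 14 markers of the choroid plexus 9 were measured. They summed to 50.6 to 462 FPKM in resveratrol and 18.8 to 115 FPKM in vehicle, with resveratrol 3 highest. Ttr alone made up most of each sum, at 43.2 to 441 FPKM in resveratrol and 13.3 to 108 FPKM in vehicle. Lists for thalamus and habenula, interneurons, astrocytes, microglia, vessels, oligodendrocytes and hippocampus had medians between -0.17 and 0.01 (log2 fold change), with 0 genes called in any list. Among these lists, only the oligodendrocyte sums did not overlap between groups. They were 1197 to 1403 FPKM in resveratrol and 1406 to 1493 FPKM in vehicle, with 7 of 8 genes lower in resveratrol. The cause of this difference was not tested. Exons of 7 members share 5% or more of their bases with a gene on the other strand in GENCODE M21 (GRCm38), which may not be the annotation behind the FPKM values. They are Drd5 (48.6%, Gm26560), Adora1 (20.1%, Mybph), Htr1b (18.0%, D430036J16Rik), Chrnb2 (16.3%, Adar), Hrh3 (11.1%, Gm17180), Adra1d (7.7%, Gm14285) and Chrm1 (5.1%, Gm22820). Whether the authors' quantification used strand is not given in the sources used here, so the values of these 7 are uncertain to that extent.

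All 35 receptors had a mean of at least 0.5 FPKM and entered the test. The most abundant was Adora1, at a mean of 38.1 FPKM over the 6 libraries, followed by Chrm3 at 24.6, Drd1 at 22.4, Chrm1 at 18.9, Htr2a at 18.1 and Hrh3 at 14.5 FPKM. A mean of at least 10 FPKM was found for 11 members, 17 lay between 2 and 10 FPKM and 7 below 2 FPKM. The lowest were Htr6 at 0.749, Drd5 at 0.760 and Htr1d at 0.886 FPKM. In this order of levels, 32 of the 34 pairs of neighbours had overlapping ranges over the 6 libraries. Most adjacent places in the order were therefore not separated beyond the spread between mice.

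**Figure D1:**
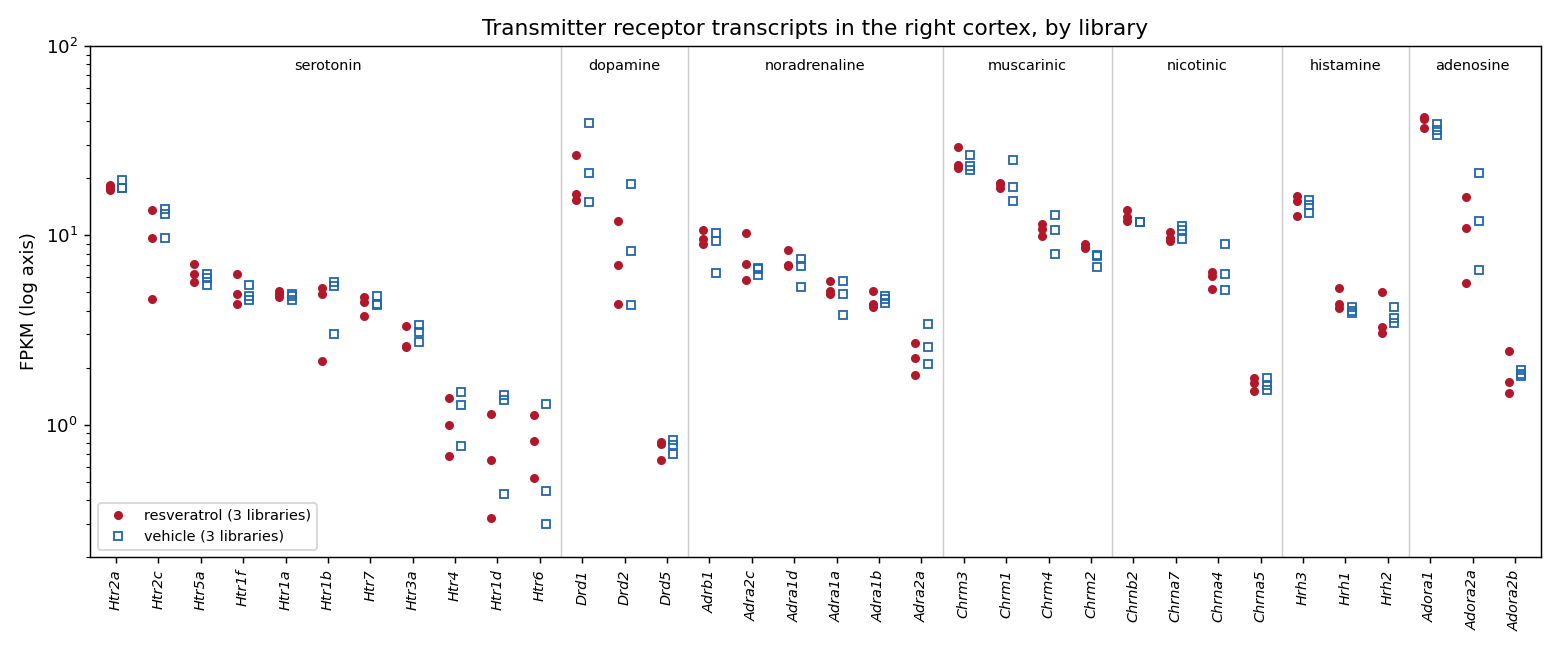
FPKM (log axis) of 34 of the 35 receptor genes in each library, by transmitter, with resveratrol (filled circles) left of vehicle (open squares) and each point 1 mouse. Adora1 is the highest gene, from 33.9 to 42.0 FPKM, and the points of Drd1, Drd2 and Adora2a spread widely within both groups while those of Htr2a and Htr1a lie close together.

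None of the 35 receptors passed the comparison of resveratrol with vehicle, which asks which transcripts differ 2 weeks after the injection. The test was limma on log2(FPKM + 0.5), two-sided, with the Benjamini-Hochberg adjustment over 13574 genes and a threshold of 0.05. It called 1 of all tested genes (0.00737%) and 0 receptors, whose adjusted p was 0.987 or higher. At an unadjusted limma p under 0.05 there were also 0 receptors, where 2.42% of all tested genes lay. That count was 1 without resveratrol 3 (Htr2c), vehicle 2 (Htr6) or vehicle 3 (Htr1d). Under 1 alternative limma estimated a weight for each library. There 7 receptors passed (Htr2c, Drd1, Adora1, Adra1d, Adrb1, Hrh3 and Htr6), as did 4927 of the 13574 genes, and 12 receptors had an unadjusted p under 0.05. The share of all genes under an unadjusted p of 0.05 was not computed for the left-out libraries or the weights. Those weights were 9.20 for resveratrol 2 and 5.02 for vehicle 1, against 0.227 to 0.556 for the others, and the estimate stopped before it reached its tolerance. By the authors' deposited p-values 4 receptors were under 0.05, as were 5.98% of all rows, and 0 had a deposited q-value under 0.05, as did 0.744% of rows. In the authors' deposited table those 4 were Htr2c at 0.0113, Drd1 at 0.0152, Htr1d at 0.01745 and Drd2 at 0.01955, all with a negative fold change of resveratrol over vehicle.

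Of the receptors, 17 had a positive and 18 a negative log2 fold change of resveratrol over vehicle, where 56.1% of all tested genes were positive. The sign of 22 receptors changed when at least 1 of the 6 libraries was left out. The median log2 fold change was -0.01 over the 35 receptors (0.0054 with quantile normalization) and 0.02 over all tested genes. The size was under 0.25 for 31 receptors, and the 95% interval included 0 for all 35. For 22 receptors that interval lay within 0.5 of 0 on the log2 scale. The remaining 13 are less precisely measured, and the median SE was 0.16 over the receptors and 0.14 over all tested genes. The groups did not overlap for 2 receptors, Chrm2 and Chrnb2, both higher in resveratrol. Over all tested genes 6.28% did not overlap, 4.28% with resveratrol higher.

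**Figure D2:**
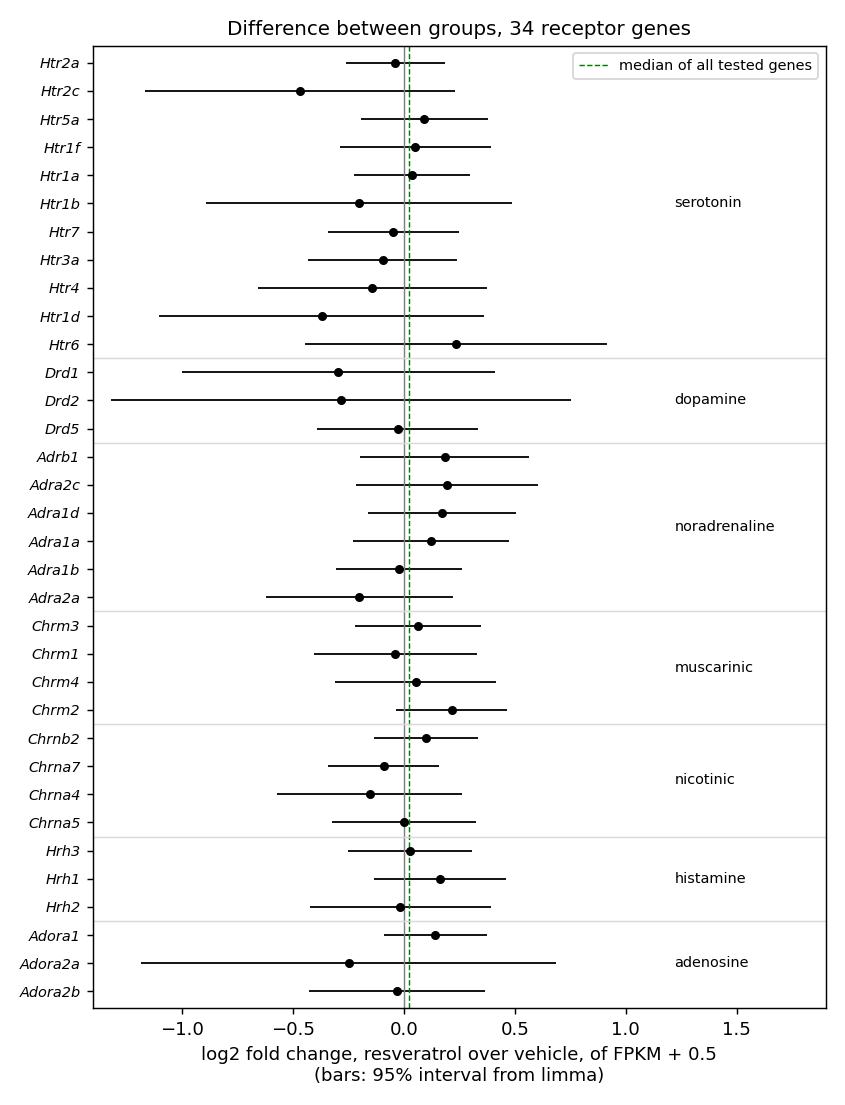
Log2 fold change of resveratrol over vehicle (horizontal axis, on FPKM + 0.5) for 34 of the 35 receptor genes by transmitter, with points for the limma estimate, bars for its 95% interval and a dashed line for the median of all tested genes. Every bar crosses 0, and the widest belong to Drd2 (-1.32 to 0.75), Adora2a (-1.19 to 0.69) and Htr1d (-1.10 to 0.36).

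The 4 muscarinic receptors, which answer acetylcholine through G proteins, included the member with the smallest p. Chrm2, a Gi-coupled receptor that restrains acetylcholine release from cholinergic terminals (chr6:36388084-36528414), had 8.68, 8.54 and 9.04 FPKM in resveratrol 1, 2 and 3, against 7.78, 6.83 and 7.84 FPKM in vehicle 1, 2 and 3. The lowest resveratrol library lay above the highest vehicle library. The means were 8.75 ± 0.257 FPKM in resveratrol and 7.48 ± 0.569 FPKM in vehicle (SD, n = 3 each), with a log2 fold change of 0.22 ± 0.11 (SE), an interval of -0.04 to 0.47 and an unadjusted limma p of 0.0859. The Gq-coupled Chrm3 (chr13:9875486-10360847) was the most abundant muscarinic receptor, with 29.3, 22.8 and 23.4 FPKM in resveratrol 1, 2 and 3, against 23.4, 26.4 and 22.1 FPKM in vehicle 1, 2 and 3. Resveratrol 1 was highest and the groups overlapped (log2 fold change 0.06 ± 0.13 (SE)). Chrm1, the Gq-coupled receptor of cortical pyramidal neurons, ranged from 15.1 to 24.9 FPKM with vehicle 2 highest and vehicle 3 lowest (log2 fold change -0.04 ± 0.16 (SE)). Chrm4, a Gi-coupled receptor also known from striatal neurons, ranged from 8.003 to 12.7 FPKM with the same libraries at the ends (log2 fold change 0.05 ± 0.16 (SE)). The median over the 4 was 0.06, with 3 positive values.

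Nicotinic subunits form the channels through which acetylcholine excites cells directly. Chrnb2, the beta subunit that pairs with Chrna4 in the high-affinity brain receptor (chr3:89746195-89764632), had 11.8, 12.5 and 13.6 FPKM in resveratrol 1, 2 and 3, against 11.7, 11.8 and 11.7 FPKM in vehicle 1, 2 and 3. The 3 vehicle values were almost equal, and all 3 resveratrol values lay above them, the lowest by a narrow margin (11.82 FPKM in resveratrol 1, against 11.80 FPKM in vehicle 2). As given above, exons of Chrnb2 overlap Adar on the other strand. The means were 12.6 ± 0.893 FPKM in resveratrol and 11.7 ± 0.061 FPKM in vehicle (SD, n = 3 each). This is a log2 fold change of 0.10 ± 0.11 (SE), with an unadjusted limma p of 0.364. Chrna4 itself ranged from 5.12 to 8.98 FPKM, highest in vehicle 2 (log2 fold change -0.15 ± 0.19 (SE)). Chrna7, which forms channels on its own, ranged from 9.36 to 11.1 FPKM (log2 fold change -0.09 ± 0.11 (SE)), and the accessory subunit Chrna5 from 1.5005 to 1.76 FPKM (log2 fold change 0.00 ± 0.14 (SE)). Values were positive for 2 and negative for 2 subunits, with a median of -0.04. The highest library was 1.75-fold above the lowest for Chrna4 and between 1.16-fold and 1.19-fold above it for the other three.

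The serotonin receptors are the largest family, with 11 members, of which 4 had a positive and 7 a negative fold change (median -0.05). Htr2a, the Gq-coupled receptor of cortical pyramidal neurons through which psychedelics act (chr14:74640840-74709494), was the most abundant. It had 17.4, 18.4 and 17.7 FPKM in resveratrol 1, 2 and 3, against 19.5, 17.8 and 17.7 FPKM in vehicle 1, 2 and 3. All 6 libraries lay within 1.12-fold and the groups overlapped (log2 fold change -0.04 ± 0.10 (SE)). Htr2c, its close relative and a receptor abundant in the choroid plexus (chrX:146962513-147197277), had 4.62, 9.62 and 13.7 FPKM in resveratrol 1, 2 and 3, against 13.7, 12.9 and 9.67 FPKM in vehicle 1, 2 and 3. The value in resveratrol 1 was far below the others, and resveratrol 3 was close to the highest vehicle library, so the groups overlapped. Its means were 9.30 ± 4.53 FPKM in resveratrol and 12.1 ± 2.14 FPKM in vehicle (SD, n = 3 each) with a log2 fold change of -0.47 ± 0.31 (SE). Without resveratrol 1 the log2 fold change of Htr2c was -0.06, and without resveratrol 3 it was -0.79, where its unadjusted limma p was under 0.05. Choroid plexus markers had all 9 fold changes positive (median 0.53). Sums were 146, 50.6 and 462 FPKM in resveratrol 1, 2 and 3, against 18.8, 55.1 and 115 FPKM in vehicle 1, 2 and 3. Most of each sum was Ttr. Ttr had 137, 43.2 and 441 FPKM in resveratrol 1, 2 and 3, against 13.3, 46.4 and 108 FPKM in vehicle 1, 2 and 3. The part of these markers in the values of Htr2c was not tested.

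Htr1b and Htr1d are Gi-coupled receptors on nerve terminals, where they limit transmitter release. Htr1b (chr9:81628291-81633828) had 2.17, 5.26 and 4.91 FPKM in resveratrol 1, 2 and 3, against 5.64, 5.39 and 3.00 FPKM in vehicle 1, 2 and 3. Resveratrol 1 and vehicle 3 were low and the other 4 libraries lay close together (log2 fold change -0.20 ± 0.31 (SE)). The value for Htr1b was 0.15 without resveratrol 1 and -0.46 without vehicle 3. Htr1d (chr4:136423524-136444398), at a much lower level, had 0.320, 1.13 and 0.650 FPKM in resveratrol 1, 2 and 3, against 1.43, 1.35 and 0.429 FPKM in vehicle 1, 2 and 3. Here too resveratrol 1 and vehicle 3 were the lowest libraries and the groups overlapped (log2 fold change -0.37 ± 0.33 (SE)). The value for Htr1d was -0.12 without resveratrol 1 and -0.71 without vehicle 3, where its unadjusted limma p was under 0.05, and -0.53 with 0.1 FPKM added in place of 0.5. Among the Gi-coupled receptors that varied little, Htr1a, which hyperpolarizes neurons and is the autoreceptor of serotonin cells, ranged from 4.54 to 5.07 FPKM (log2 fold change 0.04 ± 0.12 (SE)). Htr5a ranged from 5.44 to 7.07 FPKM and Htr1f from 4.34 to 6.22 FPKM, with log2 fold changes of 0.09 and 0.05. The channel subunit Htr3a, a mark of a class of cortical interneurons, ranged from 2.57 to 3.35 FPKM (log2 fold change -0.10). Of the Gs-coupled members, Htr7 ranged from 3.75 to 4.75 FPKM (log2 fold change -0.05), Htr4 from 0.683 to 1.49 FPKM (-0.14) and Htr6 from 0.298 to 1.28 FPKM (0.24). The value of Htr6 in vehicle 1 was the lowest of any receptor in any library, and fold changes at such levels are understated by the added 0.5 FPKM.

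All 3 dopamine receptors had a negative fold change, with a median of -0.28, and the spread within each group was wide for Drd1 and Drd2. Drd1, coupled to Gs and Golf in neurons of the direct pathway (chr13:54051183-54055705), had 15.4, 26.6 and 16.5 FPKM in resveratrol 1, 2 and 3, against 39.3, 21.3 and 15.04 FPKM in vehicle 1, 2 and 3. Vehicle 1 stood above all other libraries, vehicle 3 was the lowest, and all 3 resveratrol values lay between them. The means were 19.5 ± 6.21 FPKM in resveratrol and 25.2 ± 12.6 FPKM in vehicle (SD, n = 3 each), with a log2 fold change of -0.30 ± 0.31 (SE) and an unadjusted limma p of 0.371. Drd2, the Gi-coupled receptor of the indirect pathway (chr9:49340627-49408177), had 4.33, 11.8 and 6.97 FPKM in resveratrol 1, 2 and 3, against 18.6, 8.27 and 4.27 FPKM in vehicle 1, 2 and 3. Its libraries ranked in the same order as those of Drd1, with a 4.35-fold gap between vehicle 1 and vehicle 3 (log2 fold change -0.28 ± 0.46 (SE)). Drd5, a relative of Drd1 at a low level, ranged only from 0.651 to 0.833 FPKM (log2 fold change -0.03 ± 0.16 (SE)). The sign for Drd1 and Drd2 depended on single libraries. Without vehicle 1 the log2 fold changes were 0.08 and 0.24, and without vehicle 3 they were -0.60 and -0.76. Drd2 was also positive, at 0.05, without resveratrol 1. Drd1 and Drd2 ranked much like the summed striatal markers given above, whose mean level was used as a covariate in a further fit.

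Adenosine, which builds up when neurons are active or short of energy, acts on 3 receptors in these data. Adora1, the Gi-coupled receptor that quiets synapses and is blocked by caffeine (chr1:134199223-134235431), had 41.1, 42.0 and 37.0 FPKM in resveratrol 1, 2 and 3, against 33.9, 38.6 and 36.2 FPKM in vehicle 1, 2 and 3. The 2 highest values were from resveratrol 1 and 2, and resveratrol 3 lay below vehicle 2. Its means were 40.0 ± 2.61 FPKM in resveratrol and 36.2 ± 2.36 FPKM in vehicle (SD, n = 3 each), with a log2 fold change of 0.14 ± 0.10 (SE) and an interval of -0.09 to 0.37. Adora2a, the Gs-coupled receptor that shares the indirect-pathway neurons with Drd2 (chr10:75316877-75334784), had 5.61, 15.9 and 10.9 FPKM in resveratrol 1, 2 and 3, against 21.4, 11.9 and 6.56 FPKM in vehicle 1, 2 and 3. Vehicle 1 was highest and resveratrol 1 lowest, and the groups overlapped across most of their range (log2 fold change -0.25 ± 0.42 (SE)). Its sign was positive without resveratrol 1 (0.14) and without vehicle 1 (0.16). The low-affinity Adora2b ranged from 1.46 to 2.44 FPKM, highest in resveratrol 3 (log2 fold change -0.03 ± 0.18 (SE)). The ratio of Adora1 to Adora2a was 7.32, 2.65 and 3.40 in resveratrol 1, 2 and 3, against 1.58, 3.26 and 5.52 in vehicle 1, 2 and 3, with overlap between the groups.

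The noradrenaline receptors had 5 positive and 2 negative fold changes among 7 members, with a median of 0.12, which was 0.030 with the length and GC correction. Adrb1, the Gs-coupled beta receptor of cortical neurons (chr19:56722199-56733113), was the most abundant. It had 9.60, 8.96 and 10.6 FPKM in resveratrol 1, 2 and 3, against 6.34, 10.3 and 9.30 FPKM in vehicle 1, 2 and 3. Vehicle 1 was low and the other 5 libraries lay near each other (log2 fold change 0.18 ± 0.17 (SE)). Without vehicle 1 the log2 fold change of Adrb1 was -0.01. Adra1d, a Gq-coupled receptor (chr2:131545850-131562283), had 6.95, 6.87 and 8.41 FPKM in resveratrol 1, 2 and 3, against 5.33, 7.49 and 6.85 FPKM in vehicle 1, 2 and 3. Vehicle 1 was again the lowest, and resveratrol 3 the highest (log2 fold change 0.17 ± 0.15 (SE)). Adra2c, a Gi-coupled receptor of noradrenaline terminals (chr5:35278319-35281763), had 5.77, 7.07 and 10.2 FPKM in resveratrol 1, 2 and 3, against 6.61, 6.17 and 6.69 FPKM in vehicle 1, 2 and 3. Only resveratrol 3 stood apart from the rest, and without it the log2 fold change of 0.19 ± 0.18 (SE) became -0.02. Adra2a, the Gi-coupled autoreceptor of the same terminals (chr19:54044151-54048982), had 1.83, 2.24 and 2.71 FPKM in resveratrol 1, 2 and 3, against 2.58, 3.38 and 2.10 FPKM in vehicle 1, 2 and 3. Its groups overlapped, with a fold change of the opposite sign (-0.20 ± 0.19 (SE)). The Gq-coupled Adra1a ranged from 3.79 to 5.73 FPKM and Adra1b from 4.19 to 5.08 FPKM, with log2 fold changes of 0.12 and -0.02.

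For each of the 3 histamine receptors the groups overlapped. Hrh3, the Gi-coupled receptor by which histamine limits its own release and that of other transmitters (chr2:180099465-180104488), was the most abundant. It had 12.6, 16.2 and 15.2 FPKM in resveratrol 1, 2 and 3, against 13.1, 15.4 and 14.5 FPKM in vehicle 1, 2 and 3. The groups overlapped almost completely (log2 fold change 0.03 ± 0.12 (SE)). Hrh1, the Gq-coupled receptor that sedating antihistamines block (chr6:114397936-114483296), had 4.34, 4.11 and 5.23 FPKM in resveratrol 1, 2 and 3, against 3.96, 4.17 and 3.89 FPKM in vehicle 1, 2 and 3. Resveratrol 3 was highest, while resveratrol 2 lay within the vehicle range (log2 fold change 0.16 ± 0.13 (SE), unadjusted limma p 0.249). The Gs-coupled Hrh2 ranged from 3.06 to 5.03 FPKM, highest in resveratrol 1 and lowest in resveratrol 2 (log2 fold change -0.01 ± 0.18 (SE)). The median over the 3 was 0.03, and -0.021 with the length and GC correction.

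The members were also grouped by the signal they set off. The 12 Gi-coupled members had a median log2 fold change of 0.04, with 8 positive, and of -0.019 with the length and GC correction. The 8 Gq-coupled members had 0.02, with 4 positive, and -0.0015 with library weights. The 10 Gs-coupled members had -0.03, with 3 positive, and the 5 channel subunits -0.09, with 2 positive.

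The receptors differed widely in how far they spread across the 6 mice. The highest library was at least 2-fold above the lowest for 8 receptors, against 11.3% of all tested genes, and less than 1.5-fold above it for 16, against 63.9%. The 8 were Htr1d (4.47-fold), Drd2 (4.35), Htr6 (4.30), Adora2a (3.82), Htr2c (2.96), Drd1 (2.62), Htr1b (2.60) and Htr4 (2.19). Of these, Htr1d, Htr6 and Htr4 had means under 2 FPKM. At the other end, Htr1a and Htr2a both spread by 1.12-fold, Chrnb2 by 1.16 and Chrna5 by 1.17.

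**Figure D3:**
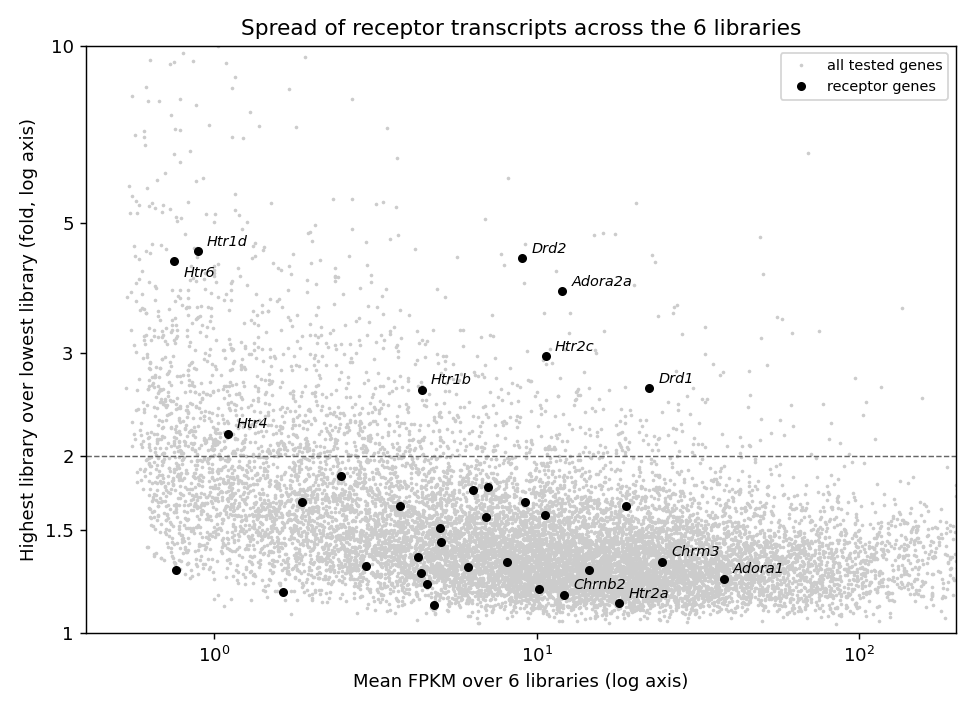
Highest over lowest library (fold, log axis) against mean FPKM (log axis) for all tested genes (grey, with genes beyond the axis limits not drawn) and 34 of the 35 receptor genes (black). Above the dashed line at 2-fold lie 8 receptors, and those over 2 FPKM are Drd2, Adora2a, Htr2c, Drd1 and Htr1b.

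Drd1, Drd2 and Adora2a varied together with the markers of striatal projection neurons. The summed level of the 17 markers was 401, 812 and 555 FPKM in resveratrol 1, 2 and 3, against 1145, 677 and 468 FPKM in vehicle 1, 2 and 3. All 17 had a negative fold change, with a median of -0.40 and 0 past the threshold. These markers varied together, so the shared sign is not 17 separate results. The sum differed 2.85-fold between its highest library, vehicle 1, and its lowest, resveratrol 1. In vehicle 2 and vehicle 3 the sum lay within the resveratrol range. Over the 6 libraries Adora2a ranked in the same order as this sum, and Drd1 and Drd2 in the same order but for the lowest pair, resveratrol 1 and vehicle 3. Htr2a also kept the order, over a range of only 1.12-fold. Vehicle 1 was the highest and resveratrol 1 the lowest library, as for the marker sum, in 5 receptors (Adora2a, Htr1b, Htr1d, Htr2a and Htr2c), where 2.58% of all tested genes had that pair. When each value was divided by the marker sum of its library, the ratio of highest to lowest was 1.29 for Drd1, 1.78 for Drd2, 1.41 for Adora2a, 1.80 for Htr1b, 2.14 for Htr2c and 2.51 for Htr1d. For Htr2a the ratio instead widened, from 1.12 to 2.54. All of these genes were picked for following the sum, so the narrower ratios restate that choice and are no test.

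**Figure D4:**
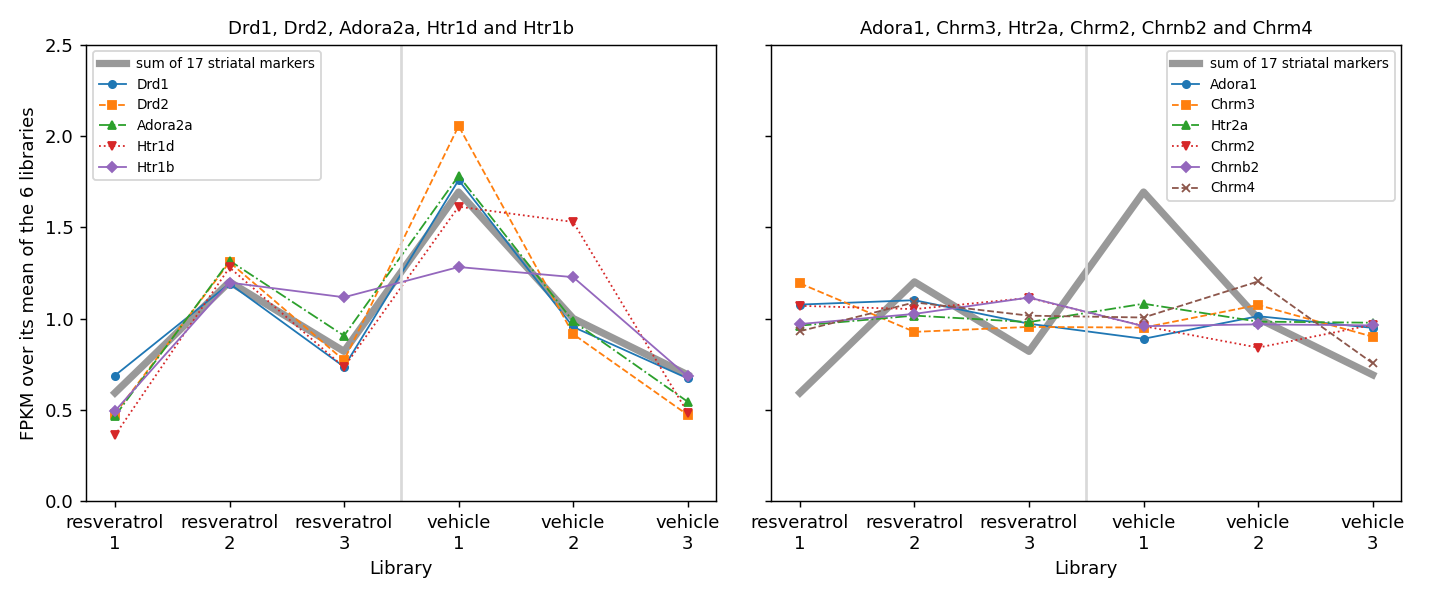
FPKM of each gene divided by its own mean over the 6 libraries (vertical axis) in resveratrol 1 to 3 and vehicle 1 to 3, with the summed striatal markers as a thick grey line. The lines only join values of 1 gene, and the genes were sorted into panels after their values were seen. On the left, with Htr1d and Htr1b, Drd1, Drd2 and Adora2a lie along the marker sum, high in vehicle 1 and low in resveratrol 1 and vehicle 3. On the right, Adora1, Chrm3, Htr2a, Chrm2, Chrnb2 and Chrm4 stay flatter, from 1.12-fold (Htr2a) to 1.59-fold (Chrm4) between lowest and highest.

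The fit was repeated with the mean log2 level of the striatal markers as a covariate, a choice made after seeing the data. The log2 fold change was then 0.07 for Drd1, 0.27 for Drd2, 0.24 for Adora2a and -0.27 for Htr2c, and again 0 receptors passed. Chrm2 was at 0.21 and Adora1 at 0.13 in this fit, against 0.22 and 0.14 without the covariate. Drd1, Drd2 and Adora2a had already been seen to follow the markers, so their shift restates that and is no test. The ratio of Drd2 to Adora2a, which the same striatal neurons carry, was 0.772, 0.746 and 0.639 in resveratrol 1, 2 and 3, against 0.866, 0.698 and 0.652 in vehicle 1, 2 and 3. The ratio of Drd1 to Drd2 was 3.56, 2.25 and 2.36 in resveratrol, against 2.12, 2.58 and 3.52 in vehicle. Both ratios overlapped between the groups.

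**Figure D5:**
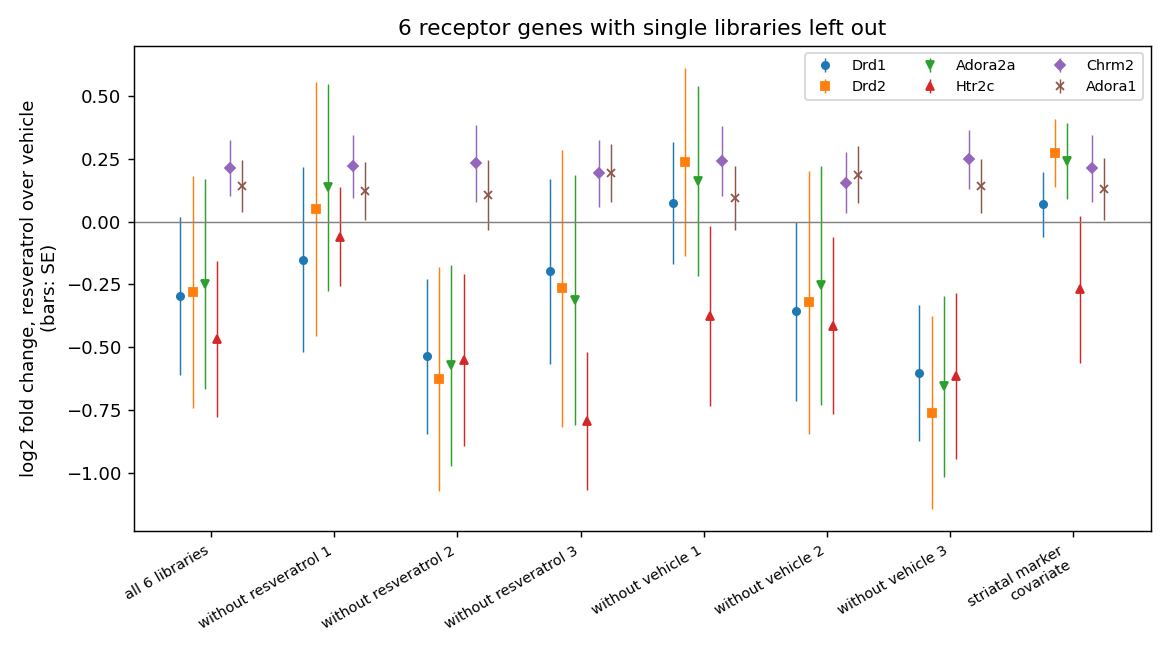
Log2 fold change of resveratrol over vehicle (points) with its SE (bars) for 6 receptor genes, with all libraries, with each library left out, and with the striatal marker level as a covariate. Drd1, Drd2 and Adora2a cross 0 between settings, while Chrm2 stays between 0.15 and 0.25 when single libraries are left out.

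Genes that carry the signal of these receptors or handle their transmitters were compared from lists chosen by function. Of 32 measured partners (G proteins, adenylyl cyclases, phospholipases, receptor kinases, arrestins and nicotinic chaperones), 0 passed the limma threshold, 0 had an unadjusted p under 0.05, and 0 had groups without overlap. Of these, 19 were positive, with a median of 0.03. The smallest p belonged to Arrb2, an arrestin that ends receptor signalling (0.22 ± 0.13 (SE)), and to Lynx1, a membrane protein that damps nicotinic receptors (0.20 ± 0.12 (SE)). Gnal, the G protein subunit Golf through which Drd1 and Adora2a act in the striatum, had 37.8, 57.6 and 45.6 FPKM in resveratrol 1, 2 and 3, against 82.7, 57.1 and 40.2 FPKM in vehicle 1, 2 and 3. Adcy5, the adenylyl cyclase of the same neurons and one of the striatal markers, had 21.5, 40.1 and 33.8 FPKM in resveratrol 1, 2 and 3, against 59.9, 47.0 and 26.1 FPKM in vehicle 1, 2 and 3. Both were highest in vehicle 1 and lowest in resveratrol 1, as was Adora2a. Gnao1, the abundant inhibitory G protein of neurons, was instead highest in vehicle 2 and lowest in vehicle 3 (-0.32 ± 0.22 (SE)).

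Of 19 measured enzymes and transporters of the transmitters, 7 were positive and 12 negative, with a median of -0.06. Among them 0 passed the limma threshold, 0 had an unadjusted p under 0.05 and 0 had groups without overlap. Slc5a7, the choline transporter of cholinergic neurons, had 1.07, 1.72 and 0.989 FPKM in resveratrol 1, 2 and 3, against 3.37, 2.03 and 0.978 FPKM in vehicle 1, 2 and 3. Vehicle 1 was highest and the groups overlapped (log2 fold change -0.50 ± 0.32 (SE)). Chat, the enzyme that makes acetylcholine, ranged from 0.401 to 1.32 FPKM, also highest in vehicle 1 and lowest in vehicle 3. Adk, the kinase that clears adenosine (0.13 ± 0.11 (SE)), Bche, a cholinesterase (-0.16 ± 0.15 (SE)), and Slc22a3, a low-affinity monoamine transporter (-0.25 ± 0.24 (SE)), had the next smallest p. Th, the first enzyme of dopamine and noradrenaline synthesis, ranged from 0.667 to 1.33 FPKM, and Maoa, which degrades monoamines, from 10.6 to 13.4 FPKM.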

How the data were processed

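RNA of 6 right cortices was made into stranded total RNA libraries with ribosomal RNA removed, per the labels' protocols. The authors deposited 1 table of FPKM per gene and library, with log2 group values, log2 fold changes, p-values and q-values of their own comparison, per the file headers. STAR, Cufflinks, Cuffdiff and GRCm38 are named in the submitters' processing notes. Looked up by symbol in GENCODE M21 (GRCm38), the deposited positions overlapped their gene for only 6 of 35 members and 15.2% of 13054 matched rows, so they are not on that build as annotated here and were not used. For annotation, filters and strand use, the entry is "not given in the sources used here". Depth is unknown because no counts were used, so no counting error is given.

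Of 13582 rows, 2 genes with a failed value and those with a mean under 0.5 FPKM were left out. The other 13574 genes entered 1 limma fit (R 4.3.3, limma 3.58.1, empirical Bayes with trend) of 3 resveratrol against 3 vehicle libraries on log2(FPKM + 0.5), which understates changes of low genes. P-values measure the spread between 3 mice per group. Group and replicate come from the sample titles. Counts and medians cover all 35 members, of which 1 is not reported here by itself. The members and lists were chosen with earlier results of these data known. Values per library are given for the most abundant member of each transmitter class, for members whose groups did not overlap and for the 10 with the smallest p. Drd2, Adora2a and Htr1b were added after their values were seen. Among enzymes and partners the 4 with the smallest p are named, and Gnal, Chat, Th and Maoa were added after their values were seen. Alternatives were other pseudocounts, filters, scalings and thresholds, robust fits, library weights, a replicate block, a length and GC correction, left-out libraries and, chosen after seeing the data, a striatal marker covariate. Gene positions are from GENCODE M21 (GRCm38).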

Additional observations from a re-analysis of the deposited data

How the results depend on the processing

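The count of 0 receptors called was kept under every alternative run except library weights, which called 7 receptors and 4927 genes and gave medians of -0.51 for dopamine, -0.20 for adenosine, -0.11 for serotonin, 0.052 for noradrenaline, 0.066 for histamine, -0.027 for all receptors, 0.10 for Gi-coupled, -0.0015 for Gq-coupled and -0.18 for Gs-coupled receptors. With a minimum mean of 2 FPKM the nicotinic median was -0.091, with median centring -0.064, and with the length and GC correction -0.064, where the noradrenaline median was 0.030. With the striatal covariate the adenosine median was 0.13. With vehicle 1 and vehicle 2 both left out, 3 genes were called, 15 of 35 receptors changed sign, and the medians were 0.10 for all receptors, 0.077 for serotonin, 0.32 for dopamine, 0.23 for muscarinic, 0.012 for nicotinic, 0.14 for adenosine, 0.14 for Gq-coupled and 0.078 for Gs-coupled receptors. The lone vehicle library was then assumed to vary like the resveratrol libraries. Leaving out each library in turn called 1 to 7 genes (7 without vehicle 3, 3 without vehicle 2) and 0 receptors, with 4 to 10 of 35 receptors changing sign. The medians then ran from -0.02 to 0.04 for all receptors, -0.11 to -0.02 for serotonin, -0.60 to 0.08 for dopamine, 0.04 to 0.20 for noradrenaline, -0.05 to 0.15 for muscarinic, -0.050 to 0.025 for nicotinic, -0.030 to 0.13 for histamine and -0.20 to 0.12 for adenosine. By signal they ran from 0.01 to 0.10 for Gi, -0.0072 to 0.14 for Gq, -0.052 to 0.066 for Gs and -0.059 to -0.0016 for channel subunits. The cause was not tested. Samples of the 2 groups share the numbers 1 to 3, and the deviations of same-numbered libraries correlated at 0.038, 0.148 and 0.184. Differently numbered libraries correlated at 0.262, -0.248, -0.092, -0.021, 0.056 and -0.304. The highest, between resveratrol 2 and vehicle 1, lay above every same-numbered value. The numbers were not taken as pairs. With the replicate block 0 receptors and 1 gene were called. Each number occurs once in each group, so the block cannot change a fold change, and the equal medians are no test.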
